A study of Mus musculus with 278 samples.

Results

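A group of 10 secreted defence genes of the mouse mammary epithelium were followed across single cells. They were Saa1, Saa2, Saa3, Ltf, Lcn2, Slpi, Chil1, Wfdc18, Lbp and Lao1, which are 10 of the 25135 genes kept from the count files. The list was chosen by name with measured values in view, namely detection and read levels across these same cells in earlier results, so those values are given as a description with no test. Cells were used where 50000 or more reads fell on kept genes. That left 222 of 278 cells, with 85 (of 112) from the adult basal sort, 41 (of 43) from the adult luminal sort and 96 (of 123) from pregnancy. The deepest cells left out had 46811, 42413 and 49505 reads, and the shallowest cells used had 67170, 173150 and 53966 reads, in that order of groups.

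All cells came from untreated female FVB/NJ mice, and every library was 1 cell captured on the Fluidigm C1 platform, which isolates cells in separate chambers. Adult cells were from non-pregnant mice, which the study describes as 10 weeks old, sorted as luminal (CD29lo CD24+) or basal (CD29hi CD24+). Pregnancy cells were total epithelium from mid-pregnancy, not sorted by lineage. Cells positive for CD31, CD45 or TER119 had been removed by the sort, so endothelial, leukocyte and red cells should be few. The labels tie no cell to an animal, so each group counted as 1 sample, and no difference between groups could be tested. Intervals are 95% exact intervals (Clopper-Pearson for shares, Poisson for sums of reads) and cover counting error only, since reads carry no molecular identifiers.

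Milk protects the newborn and the gland itself with secreted proteins of innate immunity. Some bind iron or the carriers bacteria use to take it up, some recognise bacterial lipids, some inhibit the proteases of neutrophils, and some are enzymes that harm microbes. Acute phase proteins such as serum amyloid A are best known as liver products that rise in the blood during inflammation, and several are also made by epithelia that face the outside. In the mammary gland the luminal layer makes milk in its alveolar cells, while the basal layer is contractile.

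Retained cells had a median of 378479 reads in adult basal, 637857 in adult luminal and 215202 in pregnancy cells, so detection was compared after drawing 50000 reads from each cell. "Detected" below means 1 or more of these reads, and levels are counts per 1e6 reads (CPM) of the summed, undrawn counts. The basal markers summed to 23606 CPM in adult basal and 341 CPM in adult luminal cells, and the luminal markers to 1086 and 8380 CPM, which fits the sort labels. The pregnancy cells fell into 2 parts by the number in their titles, a division known from earlier results and not named as a batch in the labels. Milk protein genes took 8.89% of reads in the 45 cells numbered 1 to 55 and 31.4% in the 51 cells numbered 56 to 123, and 23 and 2 of these cells detected 3 or more cycling markers. Animal, capture and stage cannot be told apart between these parts, and values are given within each where they differ.

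Saa1 and Saa2 are near copies that lie head to head on chromosome 7, so their sequences come first, because they decide how far the counts can be separated. Saa1 (Entrez gene 20208) lies at chr7:46740497-46743181 on the minus strand and Saa2 (20209) at chr7:46751833-46754313 on the plus strand of mm10. Their coding sequences, spliced from exons within chr7:46740704-46742522 and chr7:46752291-46754109 in GENCODE M21 of the same build, are given from position 71 to 340, counted from the start codon, in lower case with every base that differs between them in capitals. This stretch holds 17 of their 18 differences.
Saa1, coding positions 71 to 340: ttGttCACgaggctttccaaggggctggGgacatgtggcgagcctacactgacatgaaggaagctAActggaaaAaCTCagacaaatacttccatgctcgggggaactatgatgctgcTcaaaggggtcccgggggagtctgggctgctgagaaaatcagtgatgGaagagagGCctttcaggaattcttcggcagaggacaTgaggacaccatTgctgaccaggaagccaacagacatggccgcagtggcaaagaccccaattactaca
Saa2, coding positions 71 to 340: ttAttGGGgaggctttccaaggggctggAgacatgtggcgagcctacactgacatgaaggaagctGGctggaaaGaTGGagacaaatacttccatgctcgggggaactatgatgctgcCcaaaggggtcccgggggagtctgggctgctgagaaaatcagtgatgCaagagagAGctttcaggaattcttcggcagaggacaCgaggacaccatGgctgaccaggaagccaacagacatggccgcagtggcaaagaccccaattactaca
The coding sequences were identical at 351 of 369 positions (95.1%), and the differences were scattered along their length. Against Saa3 (20210, chr7:46711998-46719615, minus strand), the identity was 74.3% for Saa1 and 72.7% for Saa2. Of all stretches of 75 bases, the length of a sequenced read, 25 of 535 (4.67%) in the Saa1 transcript occurred in the Saa2 transcript, and 25 of 532 (4.70%) the other way. No stretch was shared with Saa3. Most reads of either gene could therefore be told apart by exact sequence, although mismatches that the aligner allows and differences between FVB/NJ and the reference genome were not examined.

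The 3 serum amyloid genes were found in pregnancy cells and in no adult cell. Saa1 had no read in 85 adult basal and 41 adult luminal cells, where a count of 0, taken as at most 3 cells, allows shares of up to 3.53% and 7.32% (exact upper limits 4.25% and 8.60%). It was detected in 34 of 96 pregnancy cells (35.4%, 95% interval 25.9 to 45.8). Per pregnancy cell its level ran from 0 through a median of 0 to 15377 CPM, and the summed level was 893 CPM (881 to 905). Against adult luminal cells this is at least 7389-fold higher (log2 ratio at least 12.85), with 3 reads over the group set as the floor for a sum of 0. Adult and pregnancy cells overlapped only at 0.

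Saa2, the other liver-type acute phase apolipoprotein, followed Saa1. It had no read in any adult cell and was detected in 28 of 96 pregnancy cells (29.2%, 20.3 to 39.3), with a highest cell of 6575 CPM and a summed level of 474 CPM. Its ratio over adult luminal cells was at least 11.94 on the log2 scale. Saa3, which is known as the form made outside the liver, was rarer. It was detected in 9 of 96 cells (9.38%, 4.38 to 17.1), its highest cell reached 874 CPM, and it summed to 46.3 CPM, with no adult read. Its log2 ratio over adult luminal cells was at least 8.58, and at least 7.80 without pregnancy cell 101, which held 43.2% of its reads. The Saa3 gene overlaps Gm31882, which has no row in the count files.

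**Figure D1:**
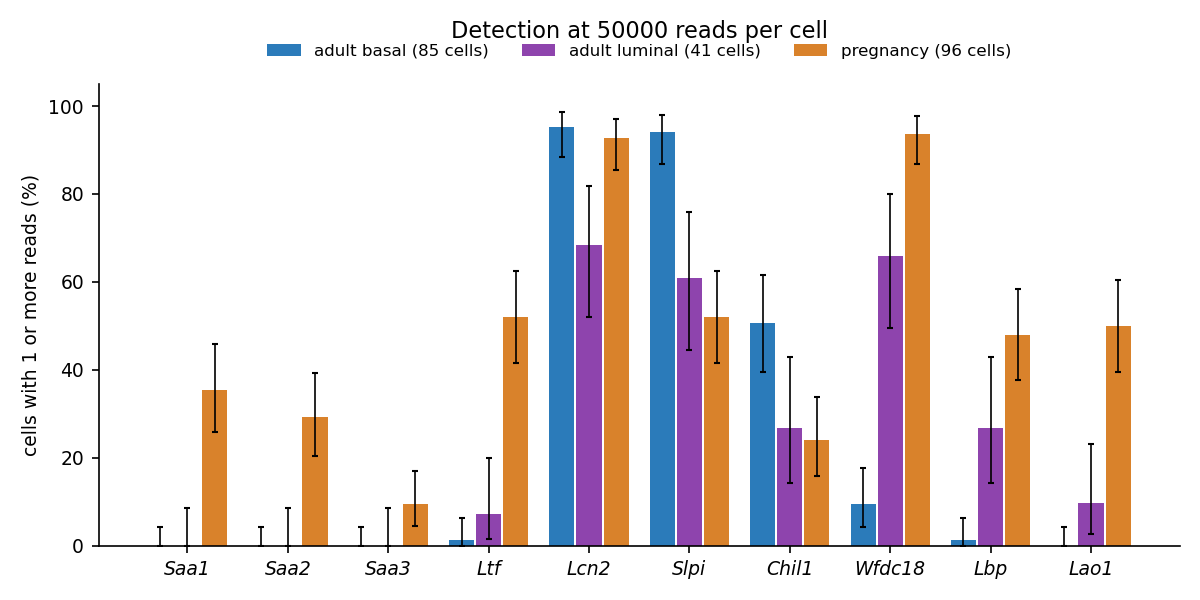
Share of cells in which each gene had 1 or more of 50000 drawn reads (vertical axis, percent) in adult basal, adult luminal and pregnancy cells, with 95% exact intervals as error bars. Saa1, Saa2 and Saa3 have bars in pregnancy cells alone, Slpi and Chil1 are highest in adult basal cells, and Lcn2 is above 68% in all groups.

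The serum amyloid reads were unevenly spread over the pregnancy cells. The 4 highest cells held 50% or more of the Saa1 reads, and cell 59 alone held 17.9%. By title number, Saa1 was detected in 4 of the 45 cells up to 55 (23.7 CPM) and in 30 of the 51 above 55 (1427 CPM). Saa2 was detected in 5 and 23 of these cells (7.93 and 761 CPM), and Saa3 in 2 and 7 (14.7 and 65.7 CPM). All 3 genes were thus present in both parts, at lower levels in the first. Cells with Saa1 were also deeper, with a median of 294478 reads against 164347 in cells without it, before reads were drawn.

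In undrawn reads, 43 pregnancy cells had Saa1 or Saa2. Both were found in 28 of them, Saa1 alone in 11 and Saa2 alone in 4. The highest count in a cell with Saa1 alone was 164 reads, and with Saa2 alone 13 reads. Among cells with both, the log2 ratio of Saa1 to Saa2 reads ranged from -5.43 to 6.69 with a median of 1.10, and 22 of 28 had more Saa1. In the 20 cells with 100 or more reads of the pair, Saa1 made up from 2.52% to 100% of them, with a median of 69.9%. The counts of the pair thus did not keep 1 ratio from cell to cell, as the plot of Saa1 against Saa2 reads shows. Of the 12 cells with a Saa3 read, 11 also had Saa1 or Saa2 reads.

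**Figure D2:**
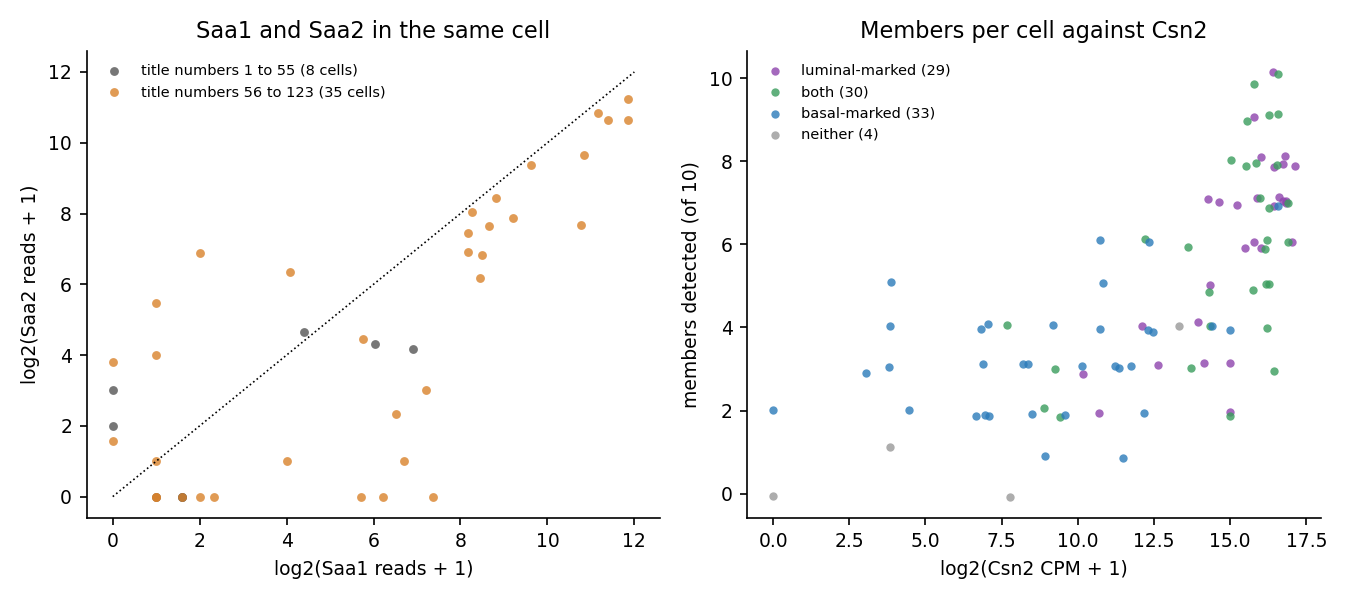
Left, log2(reads + 1) of Saa1 (horizontal) and Saa2 (vertical) in the 43 pregnancy cells with either gene, coloured by title number, with a dotted line of equal reads; right, number of the 10 genes detected (vertical) against log2(CPM + 1) of the milk gene Csn2 (horizontal) in all 96 pregnancy cells, coloured by marker class. Most cells with many reads lie below the line of equality, and cells with 6 or more genes detected lie mainly at high Csn2.

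Ltf, which encodes the iron-binding milk protein lactoferrin (17002, chr9:111019292-111042766), was also mainly a gene of pregnancy cells. Detection was 52.1% in pregnancy (50 of 96 cells, 41.6 to 62.4), against 3 of 41 adult luminal cells and 1 adult basal cell of 85. The median pregnancy cell had 34.6 CPM and the highest 9543 CPM. The summed levels were 13.4, 17.2 and 1549 CPM, and the log2 ratio of pregnancy over adult luminal cells was 6.49, or 7.24 without the top cell of each group (pregnancy cell 101 and adult luminal cell 25). All 478 adult basal reads came from adult basal cell 29. The ratio of adult luminal over adult basal was 0.37 with that cell and at least 6.82 without it and adult luminal cell 25. Within pregnancy, Ltf was detected in 12 of 45 cells (178 CPM) and 38 of 51 cells (2391 CPM) of the lower and higher title numbers.

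Lao1 is an amino acid oxidase that releases hydrogen peroxide in milk (100470, chr4:118961967-118968910). It was detected in 48 of 96 pregnancy cells (50.0%, 39.6 to 60.4) and in 4 of 41 adult luminal cells, at 895 and 7.77 CPM. No read was found in 85 adult basal cells, which allows a share of up to 3.53% when 0 is taken as at most 3 cells. The highest pregnancy cell had 5225 CPM and the median cell 10.5 CPM. The log2 ratio of pregnancy over adult luminal cells was 6.85, and 8.08 without pregnancy cell 101 and adult luminal cell 9, the latter holding 61.7% of the adult luminal reads. Lao1 was found in 17 of 45 cells (129 CPM) and 31 of 51 cells (1366 CPM) by title number. Its gene overlaps Gm12865, which has no row in the count files, and the library does not keep strand.

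Wfdc18, a small WAP-domain protein (14038, chr11:83709004-83711360), was the member with the highest level in pregnancy and was near absent from adult basal cells. Detection reached 93.8% in pregnancy (90 of 96 cells, 86.9 to 97.7), 27 of 41 in the luminal sort and 8 of 85 in the basal sort. From basal through luminal to pregnancy, the median cell had 0, 1018 and 6234 CPM, and the highest cell 157, 32750 and 41961 CPM. Adult basal cells thus lay in the lower part of the range of the other groups. The summed levels were 2.72, 3093 and 12021 CPM, giving log2 ratios of 10.15 for adult luminal over adult basal (10.78 without adult luminal cell 3 and adult basal cell 60) and 1.96 for pregnancy over adult luminal. Unlike Saa1, it was similarly frequent in both title number parts, in 41 of 45 (9378 CPM) and 49 of 51 cells (13645 CPM).

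Lbp, the lipopolysaccharide-binding protein that passes bacterial lipid to CD14 (16803, chr2:158306493-158332852), was present in 46 of 96 pregnancy cells, 11 of 41 luminal and 1 of 85 basal cells of the adult. From basal through luminal to pregnancy, the summed levels were 8.76, 87.7 and 186 CPM, and the highest cells had 1787, 1135 and 2722 CPM. Adult basal cell 100 held 98.1% of the adult basal reads. The log2 ratio of adult luminal over adult basal was 3.32, and 8.74 without that cell and adult luminal cell 10. Pregnancy over adult luminal gave 1.09, but the pregnancy cells numbered up to 55 alone gave -0.46, at 63.8 CPM against 262 CPM above 55.

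Lcn2, lipocalin 2, which captures the siderophores bacteria use to gather iron (16819, chr2:32384637-32387739), was frequent in all groups. In the basal sort 81 of 85 cells had it (95.3%, 88.4 to 98.7), in the luminal sort 28 of 41 (68.3%, 51.9 to 81.9), and in pregnancy 89 of 96 (92.7%, 85.6 to 97.0). In that order, the median cell had 1276, 417 and 1259 CPM, and the highest 8272, 8016 and 10807 CPM, so the groups overlapped over most of their range. The summed levels were 1636, 1104 and 2183 CPM. Pregnancy over adult luminal gave a log2 ratio of 0.98, and over adult basal 0.42. Both turned with the title numbers, since the cells up to 55 alone gave -0.18 and -0.75, at 976 CPM against 2924 CPM above 55.

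Slpi and Chil1 went the other way, with their highest levels in adult basal cells. Slpi, the secretory leukocyte protease inhibitor (20568, chr2:164354070-164356507), had reads in 80 of 85 cells of the basal sort (94.1%, 86.8 to 98.1), in 25 of 41 of the luminal sort (61.0%, 44.5 to 75.8) and in 50 of 96 in pregnancy (52.1%, 41.6 to 62.4). In that order, the median cell had 5403, 108 and 16.2 CPM, although the highest pregnancy cell reached 15000 CPM. The summed levels were 7475, 1103 and 329 CPM, so the log2 ratios were -2.76 for adult luminal over adult basal and -1.74 for pregnancy over adult luminal. The latter was -3.91 for title numbers up to 55 and -1.18 above, where Slpi summed to 73.5 and 487 CPM. The Slpi gene overlaps the microRNA gene Mir7678, which has no row in the count files.

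Chil1, a chitinase-like secreted protein without enzyme activity (12654, chr1:134182156-134190031), was present in 43 of 85 basal, 11 of 41 luminal and 23 of 96 pregnancy cells. In that order, its summed levels were 568, 124 and 42.1 CPM, with highest cells of 6081, 1364 and 886 CPM and a median above 0 in adult basal cells alone (6.47 CPM). The log2 ratios were -2.20 for adult luminal over adult basal and -1.56 for pregnancy over adult luminal. Chil1 did not differ much by title number within pregnancy, at 47.6 and 38.7 CPM.

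**Figure D3:**
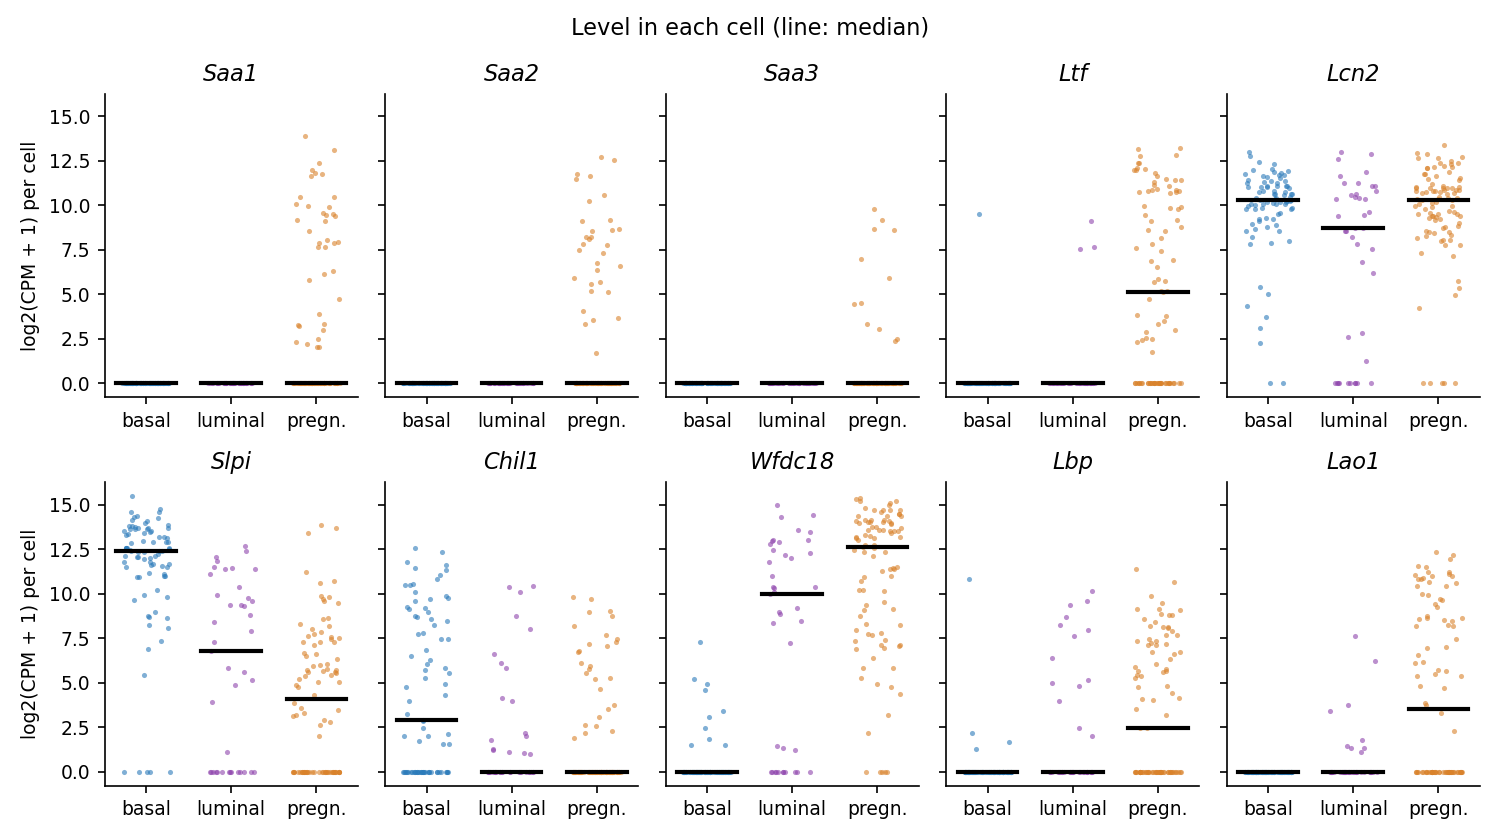
Level of each of the 10 genes per cell, as log2(CPM + 1) on the vertical axis, in 85 adult basal, 41 adult luminal and 96 pregnancy cells, each point being 1 cell and each line the median. Saa1, Saa2 and Saa3 points leave 0 in pregnancy cells alone, and the single high adult basal points of Ltf (736 CPM) and Lbp (1787 CPM) are cells 29 and 100.

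Scaled by gene length (RPKM), which allows genes to be compared, the order of summed levels in pregnancy cells was Wfdc18 (22097), Lcn2 (2559), Saa1 (1471), Saa2 (778), Ltf (565), Lao1 (457), Slpi (376), Saa3 (87.1), Lbp (73.8) and Chil1 (24.9). In adult basal cells Slpi led with 8533, followed by Lcn2 with 1918 and Chil1 with 336. In adult luminal cells Wfdc18 led with 5686, followed by Lcn2 with 1295 and Slpi with 1259. Every gene was at 0 in at least 1 cell of each group, so the ranges over cells overlapped for all neighbours in these orders. The pregnancy order was not that of the cells up to title number 55, where Wfdc18 (17239) and Lcn2 (1144) again led but were followed by Slpi (83.9), Lao1 (65.9), Ltf (64.9) and Saa1 (39.0), with Saa2 last (13.0).

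Counted at a ratio of 4-fold or more, 5 of the 10 genes were higher in pregnancy than in adult luminal cells (Saa1, Saa2, Saa3, Ltf and Lao1) and 0 were lower, where 15.8% and 12.7% of 14864 genes passed in each direction. Their median log2 ratio was 4.22, and that of all genes -0.40. With every cell given the same weight, the ratio was 5.59 for Ltf, 6.25 for Lao1, 1.23 for Wfdc18 and -0.82 for Slpi, and at least 12.24, 11.30 and 7.75 for Saa1, Saa2 and Saa3. Over adult basal cells, 7 were higher and 2 lower (Slpi and Chil1), where 20.9% and 8.94% of all genes passed, and the 2 pregnancy comparisons share the pregnancy cells. Between the adult sorts, 3 of the 7 genes with reads were higher in luminal cells (Wfdc18, Lbp and Lao1) and 2 lower (Slpi and Chil1), where 22.8% and 14.8% of all genes passed. With every cell given the same weight, luminal over basal was 1.39 for Ltf and 2.18 for Lbp. The members were chosen with such differences in view, so nothing is read from these shares. The pregnancy cells were not sorted by lineage, so lineage and stage cannot be told apart in the pregnancy ratios. In the 29 luminal-marked pregnancy cells (classed below), Wfdc18, Lbp and Chil1 were at 16952.5, 359 and 11.4 CPM. Adult luminal cells had 3093, 87.7 and 124 CPM of these 3 genes.

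Among 61 other genes of acute phase response, antimicrobial defence and their receptors and regulators, 49 had a ratio of pregnancy over adult luminal cells after the filter on low values. Of these 14 were 4-fold higher and 5 lower, with a median log2 ratio of 0.86. Of all 14864 genes, 15.8% were 4-fold higher and 12.7% lower, with a median of -0.40. The highest among those with 50 CPM or more were Lyz2, a lysozyme (at least 10.34), Wfdc17 (9.65), S100a8, a subunit of calprotectin (7.21), Cfb, complement factor B (4.52), and Serpina3n, a protease inhibitor (3.64). Lyz2, which is also among the leukocyte markers used here, was detected in 7 cells, and S100a8 in 38 of 96. Without the cell with most reads in each group, the log2 ratio was at least 8.66 for Lyz2, at least 9.13 for Wfdc17, at least 10.29 for S100a8 and 10.56 for Cfb. The lowest were Wfdc2 (-4.97), Wfdc12 (-4.46), Hp, haptoglobin (-3.75), Defb1, a beta-defensin (-3.07), and Ptx3, a pentraxin (-1.47). Without the top cells, Wfdc12 had -2.09, Defb1 -1.45 and Ptx3 -1.20. Of the Wfdc12 reads, 1 cell held 98.1% in adult luminal and 90.2% in pregnancy cells.

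Between the adult sorts, 47 of these genes had a ratio, of which 15 were 4-fold higher and 9 lower in luminal cells. Of all 14355 genes, 22.8% were 4-fold higher and 14.8% lower. The median log2 ratio of the listed genes was 0.60, against 0.32 for all genes. Serpina3n (-5.35), the transcription factors Cebpd (-2.46), Nfkb2 (-2.25), Cebpb (-2.12) and Irf1 (-1.67) had the lowest ratios, that is, their levels were higher in adult basal cells, as those of Slpi and Chil1 were. Cebpb was detected in 80 of 85 adult basal and 25 of 41 adult luminal cells. The highest ratios were those of Spp1, osteopontin (12.86), Wfdc12 (at least 10.17), Hp (at least 10.01), the lipopolysaccharide receptor Tlr4 (9.95) and the mucin Muc1 (7.46). Without the top cells, Wfdc12 was at least 4.44 and Muc1 at least 9.31.

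Within adult luminal cells Lcn2, Wfdc18 and Slpi split by luminal marker class. Of 41 cells, 5 carried progenitor and alveolar markers alone (3 or more of 8), 18 mature luminal markers alone (5 or more of 8), 13 both sets and 5 neither. Lcn2 was detected in 5 of 5, 6 of 18 and 13 of 13 of these cells, in the order progenitor, mature and both, at 3013, 368 and 1348 CPM. Wfdc18 was detected in 5 of 5, 6 of 18 and 12 of 13, at 10471, 846 and 3120 CPM. Slpi was instead lowest in the progenitor-marked cells, in 0 of 5, 17 of 18 and 7 of 13 cells, at 0.380, 1206 and 1456 CPM. Among the 5 cells with neither set, Lcn2 and Wfdc18 were each detected in 4, at 1575 and 5800 CPM. Both levels were above those of the cells with both sets. Slpi was detected in 1 of these 5 cells, at 339 CPM. Chil1, Lbp and Ltf were highest in the cells with neither set, at 443, 296 and 98.9 CPM, in 1, 2 and 1 of the 5. Lao1 was highest in the progenitor-marked cells, at 26.6 CPM, in 3 of 5. The classes were cut from counts of detected markers and are ranges rather than cell types, and 5 cells are few.

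Pregnancy cells were classed by detected lineage markers, at 5 or more of 10 basal and 6 or more of 10 luminal markers. These limits were set after the marker counts were seen, and 82 of 85 adult basal and 40 of 41 adult luminal cells reached the limit of their own lineage. They gave 29 luminal-marked, 33 basal-marked and 30 cells with both, and 4 with neither. In 15 cells the luminal count and in 3 the basal count lay within 1 of the limit. Cells were checked under a microscope by the study, and whether cells with both sets hold the RNA of more than 1 cell was not tested. Median depth was 241525 reads in luminal-marked and 131990 in basal-marked cells.

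The serum amyloid genes were found mostly in cells with luminal markers. Saa1 was detected in 16 of 29 luminal-marked, 13 of 30 double-marked and 5 of 33 basal-marked cells, at 1900, 637 and 20.1 CPM. Saa2 was detected in 14, 12 and 2 of these cells, at 947, 387 and 4.43 CPM, and Saa3 in 3, 6 and 0. The luminal-marked over basal-marked log2 ratios were 6.56 for Saa1, 7.74 for Saa2 and at least 6.68 for Saa3. Pregnancy cell 111 held 91.0% of the basal-marked Saa1 reads, and without it and cell 59 the Saa1 ratio was 9.53. Cell 111 had 8 basal and 5 luminal markers, 1 short of the luminal limit, and its Csn2 level of 98073 CPM was the highest of the basal-marked cells.

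Cell 111 also held the most basal-marked reads of Ltf, Lcn2, Wfdc18, Lbp and Lao1. With it, the luminal-marked over basal-marked log2 ratios were 3.06 for Ltf, 3.12 for Lao1, 2.50 for Wfdc18 and 2.44 for Lbp. Without it and the top luminal-marked cell of each gene, they were 6.84, 6.95, 3.89 and 4.08. Lcn2 gave 0.85 and 1.01. Ltf was detected in 22 of 29 luminal-marked and 7 of 33 basal-marked cells, Lao1 in 21 and 4, and Lbp in 22 and 5. Wfdc18 was found in 29 of 29 and 29 of 33, but its median among detecting cells was 15927 against 272 CPM. Csn2 itself was detected in 29 of 33 basal-marked cells, with a median of 672 CPM in them, and the part of milk RNA carried between cells in such values was not tested.

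Chil1 was the member with more in basal-marked cells, at 123 CPM in 11 of 33 detecting cells against 11.4 CPM in 5 of 29 luminal-marked cells (log2 ratio -3.44). Slpi gave 382 and 415 CPM (log2 ratio 0.12), with 75.3% of the basal-marked reads in cell 66 and 43.9% of the luminal-marked reads in cell 112, and the ratio was 1.28 without them. Its sign turned with the setting, to -0.36 above title number 55, -0.12 with no thinning and -0.081 with 1 marker more, so no direction is given for Slpi between the marker classes. At 4-fold, 7 members were higher and 1 lower in luminal-marked cells, where 12.2% and 21.1% of 13537 genes passed. With 1 marker more to set a class, 3 were higher, the serum amyloid genes, and Ltf (1.79), Lbp (1.74), Wfdc18 (1.58) and Lao1 (1.24) were below 4-fold. The members' median log2 ratio was 2.78, against -0.41 for all genes.

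**Figure D4:**
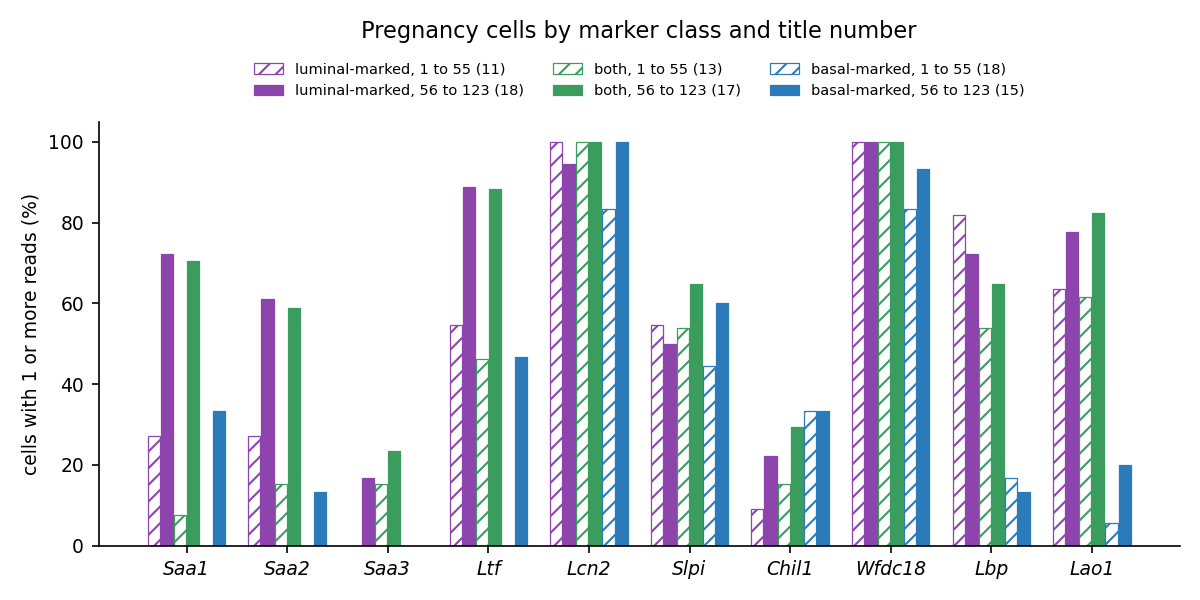
Share of pregnancy cells detecting each gene (vertical axis, percent) in luminal-marked, double-marked and basal-marked cells, hatched for title numbers 1 to 55 and filled for 56 to 123, with the number of cells in the key. Saa1, Saa2 and Ltf were more frequent at the higher title numbers in each class, and Wfdc18 was near 100% in luminal-marked and double-marked cells of both parts.

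The lineage pattern appeared in both title number parts. Saa1 was detected in 3 of 11 luminal-marked and 0 of 18 basal-marked cells up to 55, and in 13 of 18 and 5 of 15 above 55. Ltf was detected in 6 of 11 and 0 of 18, and in 16 of 18 and 7 of 15. Lbp was detected in 9 of 11 and 3 of 18, and in 13 of 18 and 2 of 15. The share with Saa1 within luminal-marked cells was 27.3% (6.02 to 61.0) in the first part and 72.2% (46.5 to 90.3) in the other. These intervals cover counting error only, and the difference between the parts was not tested. Of the cells with 3 or more cycling markers, 4 of 25 had Saa1 and 11 of 25 had Ltf, against 30 and 39 of the other 71 cells, and the part of cycling in the split was not tested.

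Pregnancy cells carried more of the 10 genes at once than adult cells. The median number detected was 2 in adult basal, 2 in adult luminal and 4 in pregnancy cells. Over all kept genes, those medians were 2262, 3418 and 3243. The 10 genes were chosen with detection in these cells in view, so their counts are a description. At least 3 of the 10 were detected in 42 of 85 (49.4%), 20 of 41 (48.8%) and 78 of 96 cells (81.3%). At least 6 were detected in 0 of 85, 1 of 41 and 40 of 96 cells, the latter being 9 of 45 up to title number 55 and 31 of 51 above. Cells 54, 59 and 101 had all 10. In the undrawn reads of cell 59, a luminal-marked cell, there were 3714 of Saa1, 1588 of Saa2, 211 of Saa3, 1657 of Ltf, 1910 of Lcn2, 8569 of Wfdc18 and 396 of Lbp, but 2 of Slpi. The genes together took 0.970% of reads in adult basal, 0.554% in adult luminal and 1.86% in pregnancy cells, and 7.51% in cell 59.

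For the serum amyloid genes, cells with the rarer gene mostly had the more frequent ones too. All 34 cells with Saa1 had Ltf, Lcn2, Wfdc18 and Csn2, while 34 of the 50 cells with Ltf had Saa1. Saa1 and Saa2 were together in 22 cells, where 9.92 would be given by independence, which is 64.7% of the Saa1 and 78.6% of the Saa2 cells. Saa3 was with Saa1 in 8 of its 9 cells. Lbp and Lao1 shared 39 cells, or 84.8% and 81.3% of each. Slpi and Lbp shared 24 cells where independence gives 23.96, and Chil1 and Lao1 shared 10 where it gives 11.5. Of 45 pairs, 44 were together more often than independence gives, 40 within title numbers up to 55 and 38 above. Some passed by less than 1 cell, such as Slpi and Wfdc18, with 47 where independence gives 46.9. The count is a description over cells that share libraries' depth and lineage. It was not made for other gene pairs, so nothing about the 10 genes is read from it.

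**Figure D5:**
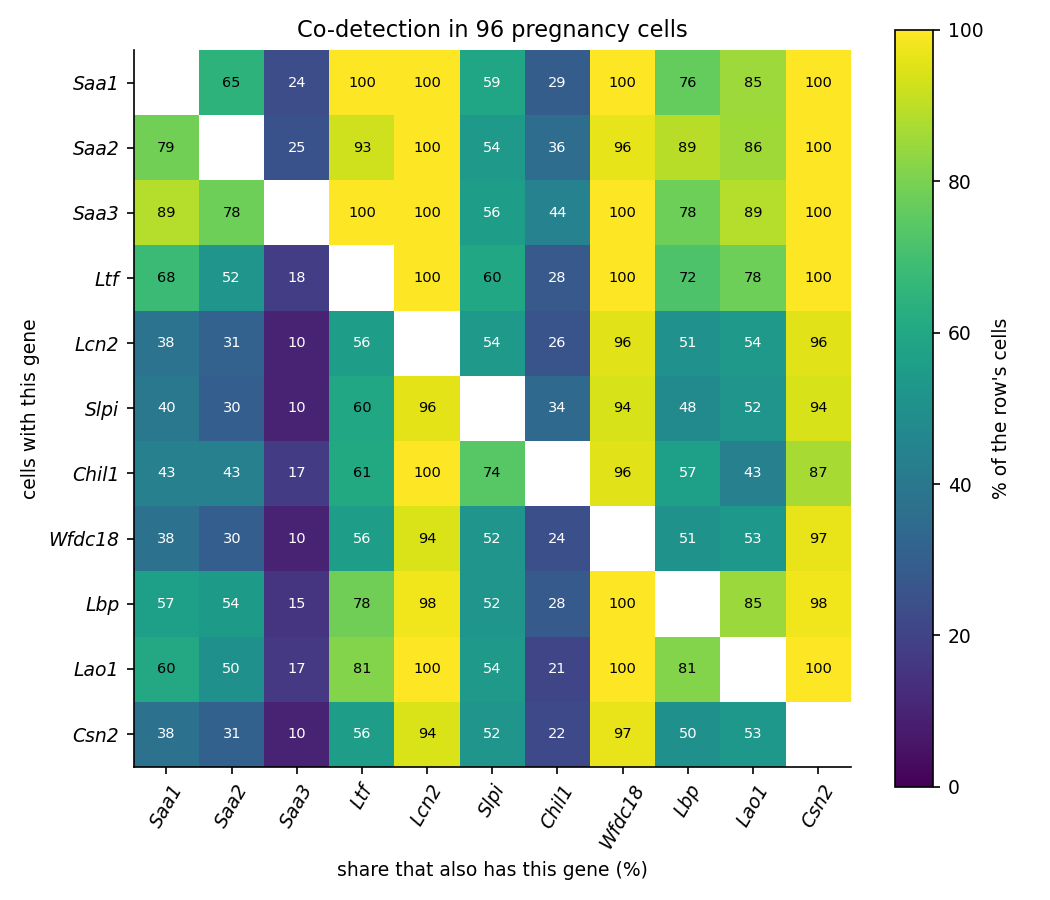
Co-detection in the 96 pregnancy cells after 50000 reads were drawn: each square gives the percent of cells with the row's gene that also had the column's gene. The Saa1, Saa2 and Saa3 rows are at 93% or more for Ltf and Lcn2, whereas the Chil1 column is at 44% or less.

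Csn2, beta-casein, served as a gauge of milk production. It was detected in 90 of 96 pregnancy cells with a median of 19942 CPM. Among the 48 cells above that median, Saa1 was detected in 27, Saa2 in 25, Ltf in 39, Lbp in 40 and Lao1 in 41. Among the 48 below it, they were detected in 7, 3, 11, 6 and 7. Slpi was detected in 27 and 23, and Chil1 in 12 and 11. None of the 6 cells without Csn2 had a serum amyloid, Ltf or Lao1 read drawn, whereas 4 had Lcn2 and 3 each had Slpi, Chil1 and Wfdc18. In adult luminal cells, where Csn2 was detected in 18 of 41, Lcn2 and Wfdc18 were each found in all 18 cells with Csn2 and in 10 and 9 of the 23 without it.

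Over the 96 cells, Spearman's rho with Csn2 was 0.85 for Lao1, 0.84 for Wfdc18, 0.74 for Ltf, 0.66 for Lbp, 0.61 for Saa1, 0.56 for Saa2 and 0.56 for Lcn2. It was 0.26 for the sparse Saa3, -0.02 for Slpi and -0.07 for Chil1. The cells share lineage mixture and title number part, so these are descriptions. Within luminal-marked cells alone (29 cells), rho was 0.85 for Lao1, 0.65 for Saa1, 0.62 for Ltf and 0.32 for Wfdc18. There Wfdc18 summed to 17150 CPM in the cells above the median of Csn2 and 16598 CPM in the others. Its lowest luminal-marked cell had 29.7 CPM. In undrawn reads with milk genes left out of the total, its rho was 0.51. Within title numbers up to 55, Saa1 had 0.33, Saa2 0.30 and Lcn2 0.44, and above 55 they had 0.64, 0.57 and 0.53.

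Of 5872 genes found in 20% or more of pregnancy cells, the 3 most alike over cells were named for each gene where rho was 0.5 or more. For Saa1 they were Ltf (0.76), Saa2 (0.72) and Cel, a milk lipase (0.70), and for Saa2 they were Saa1, Cel (0.71) and Ceacam10 (0.63). For Ltf they were Lalba, the milk protein alpha-lactalbumin (0.81), Csn3, kappa-casein (0.80), and Trf, transferrin (0.78). For Lcn2 they were Ltf (0.68), Clu, clusterin (0.65), and Cel (0.63). For Wfdc18 they were the caseins Csn1s1 (0.86), Csn3 (0.84) and Csn2 (0.84), and for Lao1 the milk genes Wap (0.87), Glycam1 (0.86) and Csn2 (0.85). For Lbp they were Cel (0.72), Lao1 (0.70) and Trf (0.69). No gene reached 0.5 for Slpi or Chil1, and Saa3 was in too few cells. Up to title number 55 the rho of Saa2 with Ceacam10 was 0.11.

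Markers of other cell types were present in some pregnancy cells. S100a8 was detected in 38 pregnancy cells, but of 8 neutrophil markers S100a9, Ly6g, Retnlg and Csf3r were at 0, and no cell detected 3 of them. The summed neutrophil list was 0.0560, 1.25 and 186 CPM in adult basal, adult luminal and pregnancy cells, with S100a8 at 185 CPM in the last. Fabp4 was found in 44 pregnancy cells, while of 6 adipocyte markers Adipoq and Plin1 were detected in none. In pregnancy, 4 cells detected 3 or more of 8 leukocyte markers, 13 of 6 fibroblast and 9 of 5 endothelial markers. The fibroblast list summed to 48.3, 1752 and 1611 CPM in adult basal, adult luminal and pregnancy cells, and its member Dcn was detected in 52 pregnancy cells (658 CPM). Saa1 was detected in 31 of the 73 pregnancy cells without such markers (1109 CPM) and in 3 of the 23 with them (90.6 CPM). Ltf was detected in 45 and 5 of these cells (1828 and 508 CPM). The fibroblast-marked and leukocyte-marked cells all had title numbers up to 55. Within that part Saa1 was at 40.5 CPM in 27 cells without such markers and 1.06 CPM in 18 with them, and above 55 at 1518 CPM in 46 and 384 CPM in 5 cells. The part of these markers in the title number split was not tested. In all 96 pregnancy cells Saa1 was at 893 CPM and Ltf at 1549 CPM, against 1109 and 1828 CPM without the marked cells. As 18 marked cells were numbered up to 55 and 5 above, leaving them out also changed the mix of the parts.

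Stretches before transcript starts were searched for letters bound by factors of the acute phase response. Both strands were used of the 250 bases before 1 start per gene, as RefSeq gives it in the mm10 build. For Saa1 and Saa3 the start used lies inside the gene span given above, and so does the match. Promoters of 9 members were in the table, Lbp not among them. The C/EBP motif TTGCNNAA occurred in 6 of 9, and in 9.55% of all 27025 promoters. The STAT motif TTCNNNGAA occurred in 0 of 9 (7.18% of all), and the kappa-B motif in 1 of 9, Chil1 (7.01% of all). The matches of the 6 genes are shown with 10 bases on each side where the window reaches that far, with the match in capitals. Those of Ltf, Saa3 and Slpi match the motif on the strand opposite to the one printed.
Lcn2, chr2:32387938-32387965, minus strand: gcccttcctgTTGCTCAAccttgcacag
Ltf, chr9:111019207-111019234, plus strand: ggcaggcctaTTGGGCAAtagggtgggg
Saa1, chr7:46743145-46743172, minus strand: tgtgctcccaTTGCACAAtgagggagaa
Saa2, chr7:46751640-46751667, plus strand: tgtgctcccaTTGCACAAtgagggaaaa
Saa3, chr7:46715758-46715785, minus strand: gtaagtgggaTTATGCAAgatcaaacag
Slpi, chr2:164356731-164356757, minus strand: gaatttgtaTTGAGCAAtaggttagag
The Saa1 and Saa2 stretches carry the same match, as the 250 bases of the pair are 94.8% identical, so they count as near copies of 1 sequence. Of the 6 genes with a match, Lcn2 was detected in 81 and Slpi in 80 of 85 adult basal cells. Ltf was detected in 1 of them and Saa1, Saa2 and Saa3 in 0. The part of the motif in these levels was not tested. A match is a run of letters and was not shown to be bound.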

How the data were processed

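Single-cell RNA-seq counts of 278 cells (Fluidigm C1, Nextera XT, NextSeq 500) were analysed. The authors mapped read pairs to mm10 with Subread 1.4.6 and assigned them to RefSeq genes by featureCounts, and the deposited files give, for each Entrez gene, unnormalised read-pair counts. Removing IDs without a symbol (1904 of 27179, 1.20% of reads), 15 mitochondrial genes (9.54%) and 125 ribosomal genes (1.72%) left 25135 genes. The members and lists were chosen with earlier results of these data known. Groups came from the labels. All 10 members are named. Other defence genes were named by the 5 highest and 5 lowest ratios at 50 CPM or more, and like genes by Spearman's rho. Counts were summed per group and divided by total reads, and genes needed 1 CPM in 3 or more cells. Ratios have exact conditional intervals. Where 1 sum was 0, 3 reads over the group replaced it, and no ratio was given when neither sum passed 3. Each group is 1 sample, so no test between groups could be made and no p-values are given. No doublet caller was run on so few cells. Retained cells had 53966 to 1290736 reads. The summing and intervals were tested on simulated counts, and the thinning on real cells. The simulated counts had counting error alone and no spread between cells of a group, unlike the real reads. Alternatives included TMM factors (edgeR 4.0.16), other read minimums, totals and detection limits. The series-wide table of the same counts was not used. Python 3.11.15, numpy 2.4.6, scipy 1.17.1, pandas 2.3.3, R 4.3.3 and Biopython 1.88 were used.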

Additional observations from a re-analysis of the deposited data

Results flagged for a closer look

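The 27 pregnancy cells below the read minimum were outside every comparison, and their total was 403178 reads. They held 112 Saa1 reads in 8 cells (29.6%, exact 95% interval 13.8 to 50.2) and 102 Saa2 reads in 7 cells, while the 27 adult basal and 2 adult luminal cells below the minimum held none in 342302 and 42651 reads. Both were singled out as signal in data outside the main measurement, above the level in adult cells.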

How the results depend on the processing

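No paired analysis was possible because cell numbers only name cells and each group is 1 sample. Of the main values recomputed under the alternatives, 93 stayed within their limits and 9 moved. With 5 or more reads as detection, at least 3 genes were found in 34.1% of adult basal and 66.7% of pregnancy cells. The count of genes lower in pregnancy than adult luminal cells was 2 at a fold of 2, 1 without cells carrying markers of another type and 1 in title numbers up to 55. Saa1 and Saa2 were together in 22.9% of pregnancy cells, 6.67% up to title number 55 and 37.3% above. Up to 55, 4 members instead of 7 reached rho 0.5 with Csn2. The share of all genes reaching it was not computed, so nothing is read from these counts. With 1 marker more to set a class, 3 genes instead of 7 were 4-fold higher in luminal-marked cells. Signs turned for Lcn2 (-0.18) and Lbp (-0.46) over adult luminal and Lcn2 (-0.75) over adult basal cells up to title number 55, and for Slpi between marker classes with no thinning (-0.12), 1 marker more (-0.081) and above 55 (-0.36); the cause was not tested. Of single values, 275 stayed, 194 moved beyond counting error and 6 turned. Removal of cells with other markers, the title number split of levels and removal of the top cells for the other defence genes were chosen after seeing the data. At 50000 drawn reads a level under 1 read is not seen, so a cell at 0 may still hold the RNA.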
